A study of Mus musculus with 180 samples.

Results

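The genes described here are the mouse kinesin, dynein and dynactin motor genes, taken by symbol from a table of counts for 54429 genes. The rule kept Kif genes, the light chains Klc1 to Klc4, Dync1 and Dync2 genes and Dctn1 to Dctn6, and left out names with Rik, os or -ps. It matched 59 rows, of which 3 (Kif22-ps, Kif16bos and Kif4-ps) were removed, leaving 56 genes. One of these, Kif1bp, encodes a kinesin-binding protein and not a motor subunit. Kif25, Dync2i1 and Dync2i2 were not analysed here.

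Kinesins are ATP-driven motors that mostly walk toward the plus ends of microtubules, which in axons point away from the cell body. Cytoplasmic dynein walks toward the minus ends and needs dynactin and an adaptor for long runs. In hippocampal neurons these motors carry vesicles, organelles, receptors and RNA granules along axons and dendrites, and kinesins of other families build the mitotic spindle in dividing cells.

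The libraries came from the brains of 30 male mice, which all carried the transgene Tg(Camk2a-cre)T29-1Stl/J, on the B6.Cg background, from a cross with B6N.129-Rpl22tm1.1Psam/J. In these mice neurons with Camk2a-driven Cre carry HA-tagged ribosomes. The series title names the hippocampus. Each mouse gave 6 library types: an HA capture of ribosomes from Camk2a neurons, a capture with an antibody to the phosphorylated form of the ribosomal protein S6 (pS6), which neurons gain with activity, and the uncaptured Input, each from the cytosolic supernatant and from the membrane pellet. Mice were without (NoCFC) or with (CFC, contextual fear conditioning) training and then slept or were sleep deprived (SD): 8 mice were NoCFC Sleep, 8 were CFC Sleep, 7 were NoCFC SD and 7 were CFC SD. The ages of the mice and the length of the sleep deprivation are not given in the labels. Title numbers 1 to 11 were all NoCFC and 12 to 22 all CFC, while 23 to 30 held 2 mice of each of the 4 groups, so that training and number run coincide outside 23 to 30. The labels do not call these runs batches.

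Total counts ranged from 11.98 to 26.95 M (1e6 counts) per library, and means by library type lay between 17.05 and 20.8 M. The excitatory neuron markers (Slc17a7, Neurod6, Camk2a and Itpka) were higher in the Camk2a capture than in Input by a median of 0.72 on the log2 scale in either fraction. Astrocyte markers were lower there by a log2 difference of -3.47 (cytosolic) and -1.93 (membrane), and oligodendrocyte markers by -4.02 and -1.82. The same excitatory markers differed from Input by -0.02 and 0.09 in the pS6 capture, where both blood markers were higher by a median of 1.72 and 2.50. In every capture and in Input, all 5 astrocyte, all 4 microglial and all 3 vascular markers exceeded their cytosolic level at least 2-fold in the membrane fraction. Counts of a bulk library cannot tell fewer cells of a type from less RNA per cell.

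Reference promoters of 4 members are shown because 3 of them hold the cAMP response element, the binding sequence of CREB, a factor switched on by neuronal activity, and the other belongs to the member with the smallest adjusted p among those called with sleep loss. Each runs from 250 bases before to 50 after a RefSeq transcript start in GRCm38.p6. They read 5′ to 3′ on the gene's strand, with the motif in capitals. The first listed promoter of each gene was used. That of Kif17 lies inside the annotated gene, which begins at chr4:138250435. They lie at chr2:49619036-49619335 on the plus strand (Kif5c), chr4:138262001-138262300 plus (Kif17), chr12:111758618-111758917 plus (Klc1) and chr17:46646031-46646330 minus (Klc4).
Kif5c: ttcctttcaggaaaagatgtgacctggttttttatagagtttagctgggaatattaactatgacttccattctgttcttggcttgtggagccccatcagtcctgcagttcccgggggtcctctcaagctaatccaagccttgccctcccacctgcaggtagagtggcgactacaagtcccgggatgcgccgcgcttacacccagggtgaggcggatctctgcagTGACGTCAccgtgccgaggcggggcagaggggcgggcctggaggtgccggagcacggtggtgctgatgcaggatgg
Kif17: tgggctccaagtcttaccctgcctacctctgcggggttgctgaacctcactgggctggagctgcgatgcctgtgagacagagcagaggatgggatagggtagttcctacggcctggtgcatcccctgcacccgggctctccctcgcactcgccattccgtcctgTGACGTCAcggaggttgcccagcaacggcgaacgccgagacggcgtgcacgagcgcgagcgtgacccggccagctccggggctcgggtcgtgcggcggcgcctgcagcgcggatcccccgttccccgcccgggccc
Klc1: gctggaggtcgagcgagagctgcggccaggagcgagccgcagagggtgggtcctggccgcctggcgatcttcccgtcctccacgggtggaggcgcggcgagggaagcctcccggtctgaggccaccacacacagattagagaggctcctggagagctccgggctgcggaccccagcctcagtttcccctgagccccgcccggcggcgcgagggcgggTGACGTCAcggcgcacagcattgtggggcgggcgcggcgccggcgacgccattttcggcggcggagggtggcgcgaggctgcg
Klc4: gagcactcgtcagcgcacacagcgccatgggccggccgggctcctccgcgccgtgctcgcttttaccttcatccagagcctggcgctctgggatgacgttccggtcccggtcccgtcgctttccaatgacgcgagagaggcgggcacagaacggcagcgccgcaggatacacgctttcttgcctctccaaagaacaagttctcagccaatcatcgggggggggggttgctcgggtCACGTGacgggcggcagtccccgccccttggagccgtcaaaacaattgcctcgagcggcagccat
The element TGACGTCA reads the same on both strands. It began 26 bases before the transcript start used for Kif5c, 86 before that for Kif17 and 33 before that for Klc1. Among the 43 members with a promoter in the table it was present in 5, or 11.6% (the other two were Kif18a and Dctn3), against 1.88% of all 27025 promoters. The E-box CACGTG that clock factors bind began 15 bases before the start used for Klc4, the only such member (2.33%, against 7.24% of all promoters). The AP-1 site TGACTCA, or TGAGTCA on the other strand, was in 0 member promoters and in 5.17% of all. The motifs were chosen with results known, and a match is a description of letters, not of binding.

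Motor genes took between 0.442% ± 0.029 (SD, n = 30) of the counts in the pS6 cytosolic libraries and 0.810% ± 0.039 in the Input membrane libraries. Values by library were scaled to CPM (counts per 1e6 counts of the library) with trimmed-mean (TMM) factors over all 180 libraries. The tests below used TMM factors computed within each comparison. Ratios of the printed CPM values can therefore differ from the printed log2 differences, also near the 2-fold threshold. Between 40 and 43 of the 56 members had a mean of at least 1 CPM in a library type, and between 13 and 19 had at least 100. Summed over classes, kinesin-1 was the highest in each of the 6 library types, from 1478 ± 78.3 CPM in pS6 cytosolic to 4778 ± 301 in Input membrane libraries. Kinesin-3 ranged from 389 ± 57.5 CPM in pS6 cytosolic to 2142 ± 253 in Camk2a membrane libraries, and dynactin from 729 ± 44.9 in pS6 membrane to 1745 ± 89.7 in Camk2a cytosolic libraries.

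**Figure D1:**
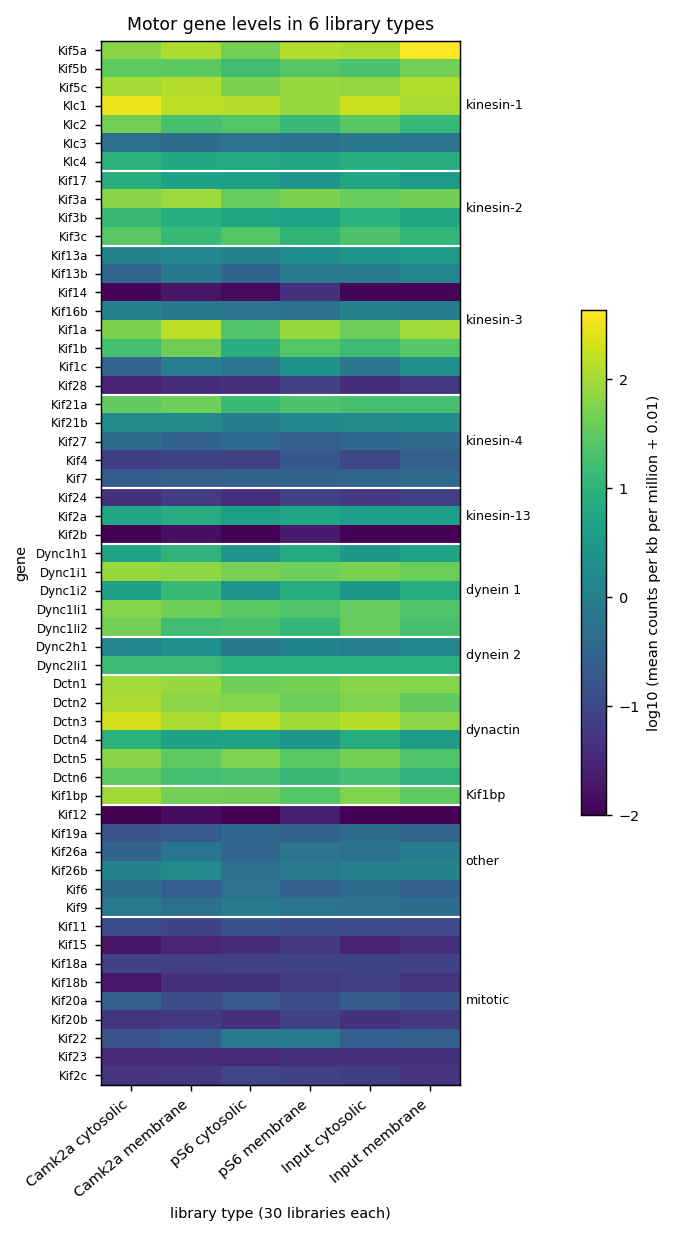
Mean level of the 56 motor genes (rows, by motor class) in the 6 library types (columns), as log10 of CPM per kilobase of exon plus 0.01. The brightest cells are Kif5a in Input membrane and Klc1 in Camk2a cytosolic libraries, and Kif12 and Kif2b are dark in every column.

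Per kilobase of exon, the most abundant members in the Camk2a cytosolic libraries were Klc1 at 327 ± 17.5 CPM per kilobase (SD, n = 30) and Dctn3 at 217. Klc1 encodes the kinesin light chain that links the motor to cargo, and Dctn3 a small subunit of the dynactin shoulder. In the Input membrane libraries the order was different and Kif5a, the neuronal kinesin-1 heavy chain, led with 429.9, followed by Kif5c with 124, Klc1 with 111 and Kif1a with 98.5. Dync1h1, the dynein heavy chain, stood far lower per kilobase at 10.1 in the Camk2a membrane and 2.63 in the pS6 cytosolic libraries.

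Kinesin-1, a tetramer of 2 heavy and 2 light chains, made up the largest class. Kif5a had 446 CPM in Camk2a cytosolic, 801 in Camk2a membrane, 326 in pS6 cytosolic, 866 in pS6 membrane, 767 in Input cytosolic and 3005 in Input membrane libraries. Kif5c, another neuronal heavy chain, had 742, 949, 368, 602, 534 and 886 CPM in that order. Kif5b, the heavy chain present in most tissues, had 240 CPM in Camk2a cytosolic and 360 in Input membrane libraries. The light chain Klc1 had 1329, 594, 535, 344, 778 and 454 CPM in the same order, each cytosolic value above its membrane value, the reverse of Kif5a.

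Of kinesin-2, the heterotrimeric motor of cilia and vesicles, Kif3a had 231 CPM in Camk2a cytosolic and 314 in Camk2a membrane libraries. Its partners Kif3b and Kif3c had 78.1 and 206 CPM in the cytosolic fraction and 47.3 and 102 in the membrane fraction. Exons of Kif3c overlap 2 other genes over 40.7% of their length in all, so reads from the overlap cannot be told apart where the strand setting of the counting is not known. Kif17, a homodimer that carries NMDA receptor subunits in dendrites, was much lower at 38.1 CPM in Camk2a cytosolic and 11.96 in pS6 membrane libraries.

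Kinesin-3 motors carry synaptic vesicle precursors and mitochondria. Kif1a had 484 CPM in Camk2a cytosolic and 1365 in Camk2a membrane libraries, and Kif1b 306 and 742. Kif13a and Kif13b were at 9.38 and 4.04 CPM in Camk2a cytosolic against 22.1 and 11.04 in Input cytosolic libraries. Kif1c, a kinesin-3 found in many tissues, was at 2.26 and 4.89 CPM in the same libraries.

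Of the other classes, Kif21a had 216 CPM and Kif21b 18.6 CPM in Camk2a cytosolic libraries (kinesin-4, regulators of microtubule growth). The microtubule-depolymerising kinesin-13 Kif2a had 33.7 CPM. The dynein intermediate chains Dync1i1 and Dync1i2 had 293 and 37.5 CPM and the light intermediate chains Dync1li1 and Dync1li2 had 233 and 264. Dctn1, the p150Glued subunit that binds microtubules, had 628 CPM, and Dctn2 to Dctn6 had 525, 226, 109, 168 and 87.5.

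The mitotic kinesins were near the floor of detection. Kif11, Kif15, Kif18a, Kif20a, Kif20b and Kif23 had means of at most 1.19 CPM in every library type. Kif12 and Kif2b had 0 counts in all 30 libraries of 4 library types, and 6 counts each in the Camk2a membrane libraries. In the pS6 membrane libraries Kif12 had 26 counts and Kif2b 13. Kif22 was the exception, with 3.77 CPM in pS6 cytosolic and 3.83 in pS6 membrane libraries against 0.79 and 1.04 in the Camk2a capture and 1.15 and 1.19 in Input. Kif22 encodes a chromosome-binding kinesin. The summed level of 6 dividing-cell markers (Mki67, Top2a, Cdk1, Ccnb1, Plk1 and Aurkb) had medians of 2.82 and 3.97 CPM in pS6, 2.44 and 3.25 in Input and 0.967 and 2.74 in Camk2a libraries, cytosolic before membrane. Their part in the Kif22 values was not tested.

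The study first asks which messages sit on membrane-bound and which on cytosolic ribosomes. In the Camk2a capture 7 of 48 tested members had at least 2-fold higher and 5 at least 2-fold lower membrane levels at an adjusted p under 0.05 (edgeR quasi-likelihood test, Benjamini-Hochberg over all genes tested), where 38.2% of all genes tested were called (27.9% higher and 10.2% lower). The pS6 capture had 10 higher and 1 lower of 53 (35.3% of all genes, 25.3% higher and 9.96% lower) and Input 6 higher and 4 lower of 48 (31% of all genes, 22% higher and 8.97% lower). Pooled over both directions, these shares of members were below the background in all 3. The median log2 difference of the members tested was 0.04, 0.10 and -0.02, beside -0.07, -0.03 and -0.12 for all genes. Genes passed the filter on low counts through any group, so the members tested are not all members.

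Kif1a was 1.6 ± 0.03 higher in membrane than cytosolic Camk2a libraries (log2, ± SE, n = 30 per fraction, adjusted p = 2.60e-49), 1.83 ± 0.05 in pS6 and 1.33 ± 0.04 in Input. Kif1b was higher by 1.38 ± 0.04 in Camk2a and 1.64 ± 0.05 in pS6, and its Input difference of 0.88 ± 0.03 was below 2-fold. Kif1c was higher by 1.74 ± 0.08, 1.96 ± 0.07 and 1.65 ± 0.05. Kif13b was higher by 1.36 ± 0.09 in Camk2a and 1.43 ± 0.11 in pS6. Summed over kinesin-3, the Camk2a libraries held 816 ± 57.1 CPM (cytosolic) and 2142 ± 253 (membrane, ± SD, n = 30). The ranges were 718 to 1005 and 1760 to 2608.

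Kif5a was higher in the membrane fraction by 1.99 ± 0.04 in Input (adjusted p = 4.04e-51), by 1.43 ± 0.04 in pS6 and by 0.95 ± 0.04, just under 2-fold, in Camk2a libraries. Kif5b was higher by 1.17 ± 0.03 in Input, against 0.76 ± 0.03 in pS6 and 0.09 ± 0.03 in Camk2a. Kif5c differed by 0.46 ± 0.03 in Camk2a, 0.74 ± 0.03 in pS6 and 0.74 ± 0.03 in Input. The light chains went the other way: in Camk2a libraries Klc1 was lower in the membrane fraction by a log2 difference of -1.06 ± 0.02 and Klc2 by -1.11 ± 0.04. Klc1 and Klc2 thus lay on the opposite side from Kif5a and Kif5c in the fraction comparison.

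Dynein subunits were also split. The intermediate chain Dync1i2 was higher in the membrane fraction by 1.69 ± 0.05 in Camk2a, 1.69 ± 0.04 in pS6 and 1.37 ± 0.06 in Input, while its paralogue Dync1i1 differed by -0.12 ± 0.03, -0.18 ± 0.04 and -0.31 ± 0.03. Dync1h1 was higher by 1.08 ± 0.06 in Camk2a and 1.22 ± 0.14 in pS6, and by 0.75 ± 0.06 in Input. The light intermediate chain Dync1li2 was lower by -1.33 ± 0.04 in Camk2a libraries and Dync1li1 by -0.44 ± 0.03.

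Most dynactin subunits were lower in the membrane fraction. At an adjusted p under 0.05 with no minimum fold, 6 of 6 subunits were lower in the membrane fraction in Camk2a and in Input, and 5 of 6 in pS6, where Dctn1 was higher by 0.17 ± 0.03. At this looser rule 90.2%, 88.6% and 85.4% of all genes were called in Camk2a, Input and pS6, in either direction. The share of all genes lower at this rule is not given here, and the median differences of all genes above were also negative. Dctn5 had differences of -0.93 ± 0.02 in Camk2a and -0.95 ± 0.03 in pS6, and Dctn4 -0.97 ± 0.03 and -0.66 ± 0.04. In Input, Dctn3 (-1.07 ± 0.04), Dctn4 (-1.03 ± 0.03), Dctn5 (-1.02 ± 0.03) and Klc2 (-1.06 ± 0.10) passed 2-fold by a small margin, and all 4 fell below it with relative-log-expression (RLE) scaling or DESeq2. So did 2 Camk2a calls, Klc1 (-0.98 under both) and Kif1bp (-0.94 under both). Klc2 shares 10.6% of its exon length with another gene, Kif1bp 10.1%, Kif20a 29.3% and Kif4 15.1%, so their reads cannot be told apart there. The other members past 2-fold were Kif26a (1.14 ± 0.11), Kif20a (-1.15 ± 0.17) and Kif1bp (-1.02 ± 0.02) in Camk2a, Kif3c (-1.18 ± 0.04), Kif4 (1.43 ± 0.29), Kif20b (1.1 ± 0.35) and Kif14 in pS6, and Kif4 (1.55 ± 0.15) in Input. Kif20b ended at 0.99 and lost its call with the title number as a replicate block. It had 246 counts in the pS6 membrane and 153 in the pS6 cytosolic libraries. Kif14 rested on few counts: 202 in the 30 pS6 membrane libraries, 23 of them with a count, against 22 in the pS6 cytosolic libraries. It passed the filter on low counts only in comparisons that hold the pS6 membrane libraries, where it is high, so its calls here and below are a description.

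**Figure D2:**
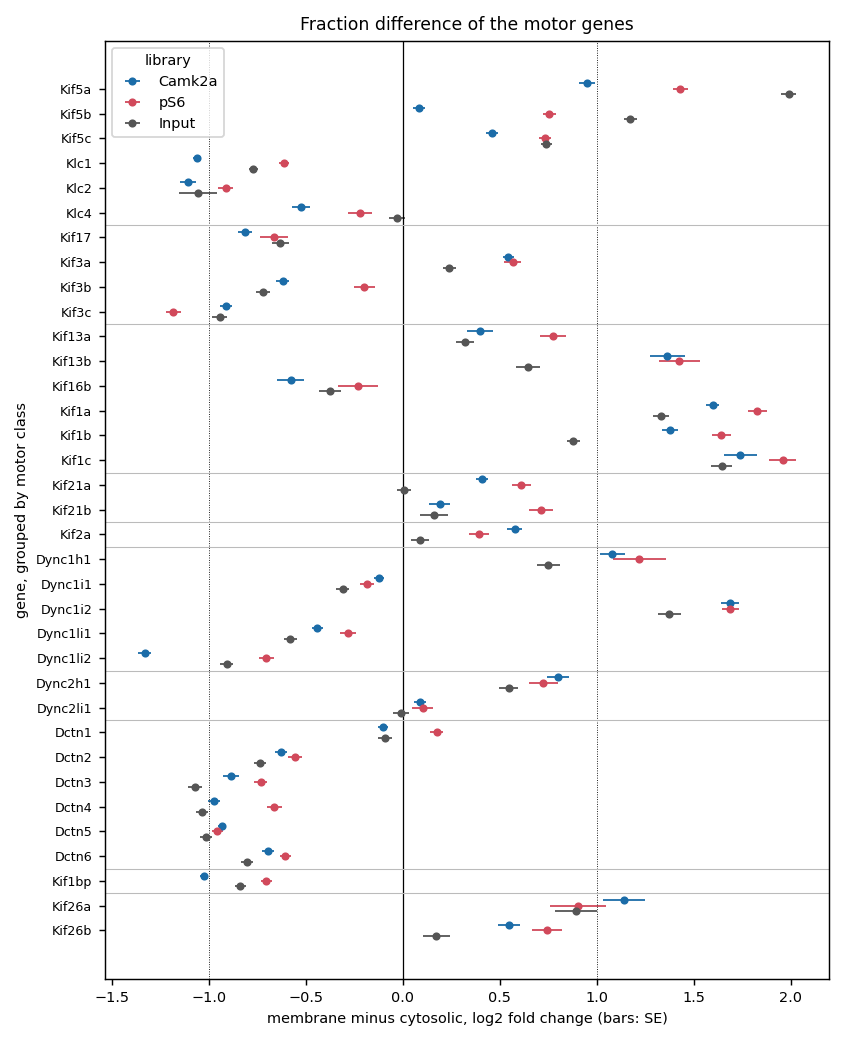
Membrane minus cytosolic log2 fold change (± SE) of the 35 members with a mean of at least 5 CPM in a library type, by motor class, for Camk2a, pS6 and Input. Dotted lines mark 2-fold, and kinesin-3 genes other than Kif16b lie on the right, while Dctn2 to Dctn6, Klc1 and Klc2 lie on the left.

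Partners of the motors were counted from lists of the pathway. Of all genes tested, 27.9%, 25.3% and 22% were called higher at 2-fold in Camk2a, pS6 and Input. The shares called lower were 10.2%, 9.96% and 8.97%. The lists are short, so their counts are descriptions beside these shares. Of the 6 other dynactin subunits 0 were higher and 4 lower by 2-fold in Camk2a, 2 lower in pS6 and 3 lower in Input, with Actr1b, an actin-related subunit of the dynactin filament, at -1.48, -1.12 and -1.25. Of the dynein light chains 2 of 5, 3 of 8 and 4 of 8 were lower and 0 higher, and Dynll1 had -1.17, -1.28 and -1.43. Of 17 kinesin adaptors 2, 3 and 3 were higher and 1 lower in each, with the membrane proteins Kidins220 (1.19, 1.51 and 1.06) and Clstn1 (1.32, 1.43 and 1.19) higher and the mitochondrial adaptor Rhot1 (-1.66, -1.30 and -1.21) lower. Of the dynein regulators 1 of 16 was higher and 4 lower in Camk2a, 1 and 1 of 16 in pS6, and 0 and 1 of 15 in Input, with Ndel1 at -1.30, -1.17 and -1.20. Among 11 tubulins 0 passed 2-fold in any of the 3.

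The next comparisons ask which messages each capture holds relative to Input. Camk2a minus Input gave 0 higher and 5 lower of 49 members in the cytosolic fraction (16.8% of all genes called, 0.371% higher and 16.5% lower) and 1 higher and 4 lower of 48 in the membrane fraction (18.7%, 1.9% higher and 16.8% lower). For pS6 minus Input the counts were 1 higher and 5 lower of 51 (20.2%, 11.4% higher and 8.84% lower) and 2 higher and 1 lower of 52 (10.8%, 7.23% higher and 3.62% lower). Pooled over both directions, shares of members called lay below the background in each.

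Kif5a was the member with the smallest p in both membrane comparisons, lower than Input by a log2 difference of -2.01 ± 0.04 in Camk2a (adjusted p = 2.72e-48) and -1.89 ± 0.04 in pS6 (adjusted p = 1.10e-47). In Input membrane libraries Kif5a ran from 2318 to 3479 CPM, and in Camk2a membrane libraries from 643 to 1096. The share of all genes with ranges apart in this comparison was not counted. At an adjusted p under 0.05 with no minimum fold, 82.7% of all genes were called in it. In the cytosolic fraction the difference was -0.95 ± 0.04 for Camk2a and -1.27 ± 0.04 for pS6.

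Kif13a was lower in the Camk2a capture by -1.41 ± 0.05 (cytosolic) and -1.35 ± 0.07 (membrane), and Kif1c by -1.30 ± 0.06 and -1.22 ± 0.08. Kif13b was lower by -1.63 ± 0.08 in the cytosolic fraction. The markers of astrocytes, oligodendrocytes, microglia and vascular cells were lower in the same comparisons, and their part in these values was not tested. Kif18b and Kif19a (-1.73 ± 0.14) in cytosolic and Kif4 (-1.76 ± 0.21) in the membrane fraction were also lower, all below 2 CPM. Kif18b had 20 counts in the Camk2a cytosolic libraries against 163 in Input, so its call is a description. Kif21a was the only member past 2-fold upward in Camk2a, by 1.04 ± 0.04 in the membrane and 0.66 ± 0.03 in the cytosolic fraction.

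In pS6 minus Input, Kif22 was higher by 1.67 ± 0.08 in the cytosolic fraction (adjusted p = 1.82e-27) and 1.58 ± 0.11 in the membrane fraction (adjusted p = 9.63e-20), and Kif14 had 202 counts in the membrane fraction against 11 in Input. Kif5a, Kif13b (-1.58 ± 0.07), Kif13a (-1.39 ± 0.06), Kif26b (-1.09 ± 0.06) and Kif18b (-1.01 ± 0.34, at -0.97 with RLE scaling) were lower in the cytosolic fraction.

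Against the Camk2a capture, the pS6 capture had 5 members higher and 11 lower of 50 in the cytosolic fraction (30.7% of all genes called, 22.3% higher and 8.36% lower) and 5 higher and 0 lower of 52 in the membrane fraction (17.9%, 16.5% higher and 1.41% lower). Klc1 was lower by -1.29 ± 0.02 and Kif21a by -1.24 ± 0.04, and Kif3b, Dctn1, Kif1a, Kif1b, Dync1li1, Dync1li2, Dctn4, Kif26b and Kif1bp were the others lower, of which Dctn4 was at -0.95 with RLE scaling or DESeq2 and below 2-fold. Kif22 (2.28 ± 0.11 and 1.84 ± 0.13), Kif1c (1.06 ± 0.07 and 1.33 ± 0.08) and Kif15 were higher in both fractions, Kif19a and Kif2c in the cytosolic, and Kif14 and Kif4 in the membrane fraction. Kif15 had 52 counts in the Camk2a cytosolic and 214 in the pS6 cytosolic libraries, and Kif2c 104 and 239. In the membrane fraction Kif15 had 117 and 272 counts and Kif4 215 and 489. These 3 genes may have passed the filter on low counts through the pS6 libraries, where they are high. Their calls are a description. These comparisons use the same pS6 and Camk2a libraries as those with Input and are not independent of them.

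**Figure D3:**
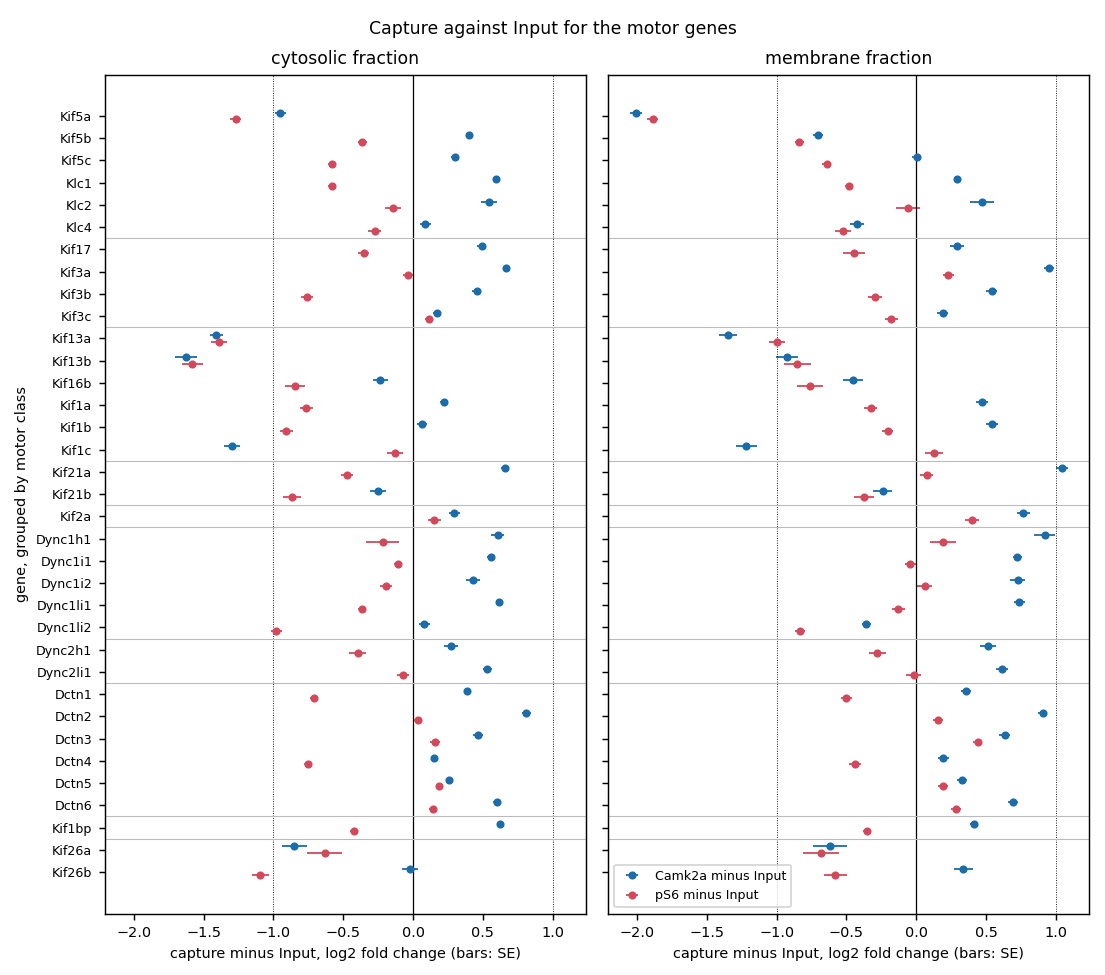
Capture minus Input log2 fold change (± SE) of the same 35 members in the cytosolic and membrane fractions, for the Camk2a and pS6 captures. Kif5a lies near -2 for both captures in the membrane fraction, and Kif21a lies near 1 for Camk2a.

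Over the 24 combinations of library type and training by sleep group, the pattern of Kif17 was most like those of Klc1 (Pearson r of mean log2 CPM 0.99), Kif1bp (0.99) and Dctn4 (0.96). Kif5a was most like Kif13b (0.90), Kif4 (0.89) and Kif26a (0.86), and Dync1h1 most like Dync2h1 (0.92), Kif1a (0.86) and Kif1b (0.86). The 24 points share mice and library types, so these are descriptions.

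Training was compared within each library type over 15 CFC and 15 NoCFC mice. In the pS6 membrane libraries 1 member was higher and 13 lower with CFC of 51 tested (16.8% of all genes called, 8.1% higher and 8.75% lower), and in the Camk2a membrane libraries 1 higher and 10 lower of 46 (17%, 9.81% higher and 7.17% lower). The median log2 difference of the members tested was -0.16 and -0.08, beside -0.00 and -0.01 for all genes. Input membrane libraries had 0 higher and 2 lower of 47 (6.53%, 3.63% higher and 2.9% lower), and Input cytosolic libraries 0 higher and 1 lower of 47 (0.219%). By edgeR, 0 of 45 members passed in Camk2a cytosolic (4 at an unadjusted p under 0.05, 0 by DESeq2, 0.148% of all genes) and 0 of 49 in pS6 cytosolic libraries (1 at an unadjusted p under 0.05, 0 by DESeq2, 0.133%).

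All these training calls were lost when the number run was added to the model or when only numbers 23 to 30 were used, where 0 members passed in any library type by edgeR. With the run term, 5 members in Camk2a membrane, 6 in pS6 membrane and 3 in Input membrane libraries had an unadjusted p under 0.05, and over all genes 1, 12 and 0 were called. Numbers 23 to 30 hold 4 CFC and 4 NoCFC mice. Outside those numbers, training and number run cannot be told apart.

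Dync1h1 had the smallest adjusted p of the members in both captures. It lies at chr12:110601452-110666945 on the plus strand of GRCm38 and its exons sum to 15658 bases. In the pS6 membrane libraries the lowest, median and highest values were 105, 187 and 242 CPM in NoCFC numbers 1 to 11, and 73.7, 86.3 and 98.7 in NoCFC numbers 23 to 30. They were 42.3, 51.4 and 70.7 in CFC numbers 12 to 22, and 56.2, 61.0 and 66.2 in CFC numbers 23 to 30. All 15 CFC libraries lay below all 15 NoCFC libraries, and NoCFC mice of numbers 23 to 30 lay below all those of 1 to 11. Of all genes tested in these libraries 5, or 0.0301%, were without overlap between CFC and NoCFC. In each of the other 5 library types this held for 0 members and 0% of all genes. Shares of all genes without overlap between number runs were not counted.

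The pS6 membrane difference of Dync1h1 was -1.56 ± 0.16 (adjusted p = 2.50e-06), and with the run term -0.57 ± 0.19 (adjusted p = 0.303). In Camk2a membrane libraries NoCFC numbers 1 to 11 ran from 178 to 252 CPM, NoCFC 23 to 30 from 103 to 140, CFC 12 to 22 from 112 to 153 and CFC 23 to 30 from 101 to 110. Here NoCFC numbers 1 to 11 lay above all other mice, and within numbers 23 to 30 the ranges of CFC and NoCFC overlapped. The difference was -0.71 ± 0.11 (adjusted p = 0.000195), and with the run term -0.27 ± 0.11 (adjusted p = 0.535). In Input membrane libraries it was -0.47 ± 0.10 (adjusted p = 0.00406), and -0.31 ± 0.15 with the run term (adjusted p = 0.728).

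Kif1a fell in the pS6 and Camk2a membrane libraries, while its Input membrane difference of -0.15 did not pass (adjusted p = 0.179). In the pS6 membrane fraction NoCFC numbers 1 to 11 ran from 762 to 1029.7 CPM, NoCFC 23 to 30 from 649 to 753, CFC 12 to 22 from 609 to 763 and CFC 23 to 30 from 683 to 716. The values of NoCFC 1 to 11 were the high ones, and those of the 3 other sets overlapped. The difference was -0.40 ± 0.06 (adjusted p = 2.81e-05), against -0.06 ± 0.08 with the run term. Kif1b (-0.35 ± 0.06) and Kif21a (-0.37 ± 0.06) had pS6 membrane values of the same kind. Kif1b ran from 454 to 574 CPM in NoCFC 1 to 11 and from 329.5 to 418 in NoCFC 23 to 30. Kif3a was lower with CFC by -0.32 ± 0.06, and its 2 NoCFC sets overlapped, at 181 to 248 and 163 to 198 CPM.

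Dctn1 was lower with CFC by -0.35 ± 0.05 in pS6 membrane libraries (adjusted p = 1.01e-05) and -0.17 ± 0.04 in Camk2a membrane libraries (adjusted p = 0.00749). Its pS6 membrane levels were 278 to 388 CPM in NoCFC 1 to 11, 271 to 314 in NoCFC 23 to 30, 236 to 291 in CFC 12 to 22 and 291 to 314 in CFC 23 to 30. Within numbers 23 to 30 both training groups overlapped, and the run term gave -0.03 ± 0.07. The other members lower in pS6 membrane libraries were Klc1 (-0.16 ± 0.04), Dync2h1 (-0.43 ± 0.10), Kif3b (-0.32 ± 0.09), Kif21b (-0.30 ± 0.09), Klc2 (-0.19 ± 0.06), Dync1i1 (-0.17 ± 0.06) and Dync1i2 (-0.17 ± 0.06). With the run term Klc2, Dync1i1, Dync1i2 and Kif1b turned to differences above 0 in these libraries. Dync1i2 was at 0.19. Within numbers 23 to 30 it lay at 68.4 to 90.2 CPM in the 4 CFC mice and 62.9 to 66.7 in the 4 NoCFC mice. These ranges did not overlap. In the same libraries those of Kif13b were likewise apart with CFC higher, and those of Dync1h1 with CFC lower. The share of all genes so separated in this split was not counted, and each side holds 4 mice. These separations are descriptions. The other members lower in Camk2a membrane libraries were Kif24 (-1.23 ± 0.31, at most 1.12 CPM), Dctn5 (-0.14 ± 0.04), Klc1 (-0.12 ± 0.03) and Kif1a (-0.19 ± 0.05). Kif21a (-0.18 ± 0.05), Kif3a (-0.16 ± 0.05), Kif21b (-0.22 ± 0.07) and Kif1b (-0.18 ± 0.06, above 0 with the run term) were the rest.

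Kif5a went the other way in the captures. In pS6 membrane libraries it ran from 624 to 842 CPM (median 771) in NoCFC 1 to 11, from 719 to 889.8 (842) in NoCFC 23 to 30, from 824 to 1125 (878) in CFC 12 to 22 and from 836 to 1275 (1068) in CFC 23 to 30. Here the medians were ordered by training within and outside numbers 23 to 30, with overlap in both. The difference was 0.21 ± 0.06 (adjusted p = 0.00761) and 0.30 ± 0.10 with the run term (adjusted p = 0.286). In Camk2a membrane libraries it was 0.19 ± 0.06 (adjusted p = 0.0238) and 0.23 ± 0.12 with the run term. In Input cytosolic libraries Kif5a was lower with CFC by -0.28 ± 0.05 (adjusted p = 0.0130), with 781 to 987 CPM in NoCFC 1 to 11 and 546 to 762 in CFC 12 to 22, and the run term turned the sign to 0.02. Kif13b was lower in Input membrane libraries by -0.34 ± 0.08 (adjusted p = 0.00960), and by -0.27 ± 0.16 with the run term.

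**Figure D4:**
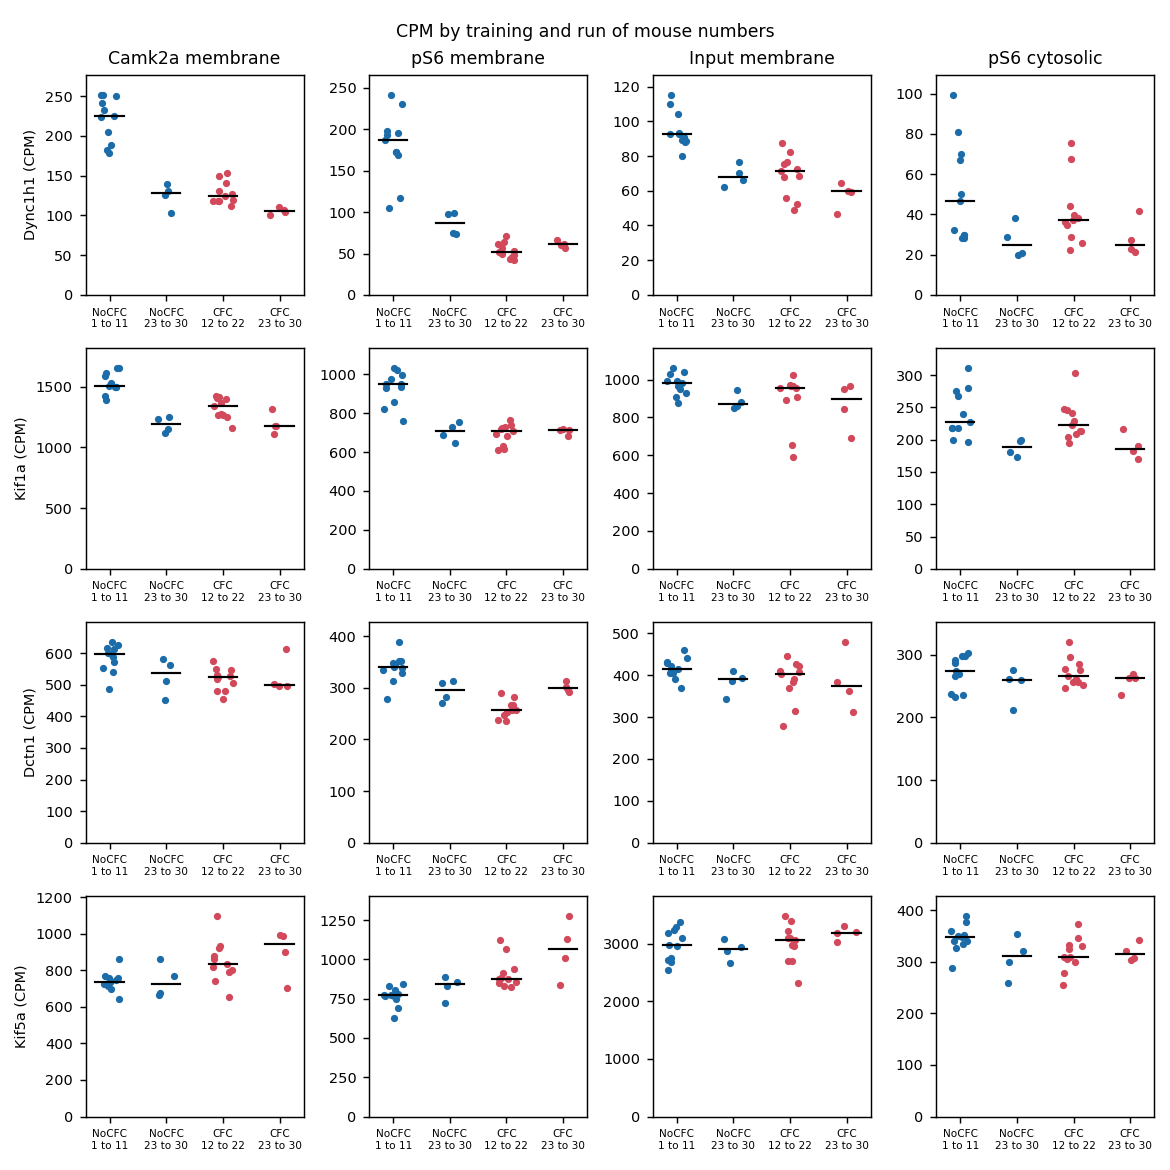
CPM per library of Dync1h1, Kif1a, Dctn1 and Kif5a in 4 library types, for NoCFC numbers 1 to 11, NoCFC 23 to 30, CFC 12 to 22 and CFC 23 to 30 (black lines are medians, axes start at 0). NoCFC 1 to 11 is the high set for Dync1h1 and Kif1a in the membrane captures.

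The number run itself was tested with the 4 groups in the model. It was called for 6 members in Camk2a membrane (2.51% of all genes), 6 in pS6 membrane (2.13%) and 5 in pS6 cytosolic libraries (0.594%). In Camk2a cytosolic (0.0202%), Input cytosolic and Input membrane libraries 0 members were called by edgeR, with 8, 3 and 4 at an unadjusted p under 0.05. Numbers 23 to 30 against 1 to 11, a comparison that rests on NoCFC mice, gave 5 members in Camk2a membrane libraries (4.02% of all genes): Dync1h1 (-0.83 ± 0.09, adjusted p = 4.69e-07), Kif1a (-0.37 ± 0.06), Kif1b (-0.42 ± 0.07) and Dync2h1 (-0.55 ± 0.10) lower, and Kif3c (0.28 ± 0.06) higher. In pS6 membrane libraries it gave 6 (2.28%), all lower: Dync1h1 (-1.08 ± 0.17), Kif1a (-0.44), Kif1b (-0.48), Kif21a (-0.43), Dctn1 (-0.24) and Dync2h1 (-0.52). In pS6 cytosolic libraries Dync1li1 (-0.33), Kif3a (-0.35), Kif21a (-0.38) and Kif1bp (-0.28) were lower (4 members, 0.849%). It gave 0 members by edgeR in Camk2a cytosolic (0.0135%, 9 at an unadjusted p under 0.05), Input cytosolic (0%, 3) and Input membrane libraries (0.0767%, 3). Numbers 23 to 30 against 12 to 22 gave 0 members and 0 genes in any library type by edgeR.

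Lists of other genes and markers were set beside the same training comparison, without the run term. Of all genes, 9.81% were higher and 7.17% lower with CFC in Camk2a membrane libraries, and 8.1% and 8.75% in pS6 membrane libraries. The lists differed in direction. Of the tubulins 8 of 10 in Camk2a membrane and 8 of 11 in pS6 membrane libraries were lower with CFC and 0 higher, with Tuba1b at -0.26 ± 0.04 and -0.27 ± 0.04. Kifap3, the kinesin-2 accessory subunit, was lower by -0.21 ± 0.05 and -0.37 ± 0.06, while 0 of 6 other dynactin subunits passed in either. Dynein regulators had 1 higher and 2 lower of 15 in Camk2a membrane and 0 and 5 of 15 in pS6 membrane libraries, where Htt was at -0.44 ± 0.12. Kinesin adaptors had 2 higher and 2 lower of 17, and 1 higher and 5 lower of 17. Microtubule-associated proteins had 2 higher and 1 lower of 12, and 1 higher and 4 lower of 12.

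In the Camk2a membrane libraries 2 of 5 astrocyte and 2 of 4 microglial markers were higher with CFC, and the summed astrocyte level ran from 586 to 1033 CPM in NoCFC 1 to 11 and from 787 to 1566 in CFC 12 to 22. Within numbers 23 to 30 it ran from 785 to 979.8 in NoCFC and from 600.0 to 1216 in CFC mice, with overlap. In the pS6 membrane libraries both blood markers were higher, with sums of 313 to 895 CPM in NoCFC 1 to 11, 482 to 1185 in CFC 12 to 22, 628 to 973 in NoCFC 23 to 30 and 730.4 to 1062 in CFC 23 to 30, and 2 of 4 oligodendrocyte markers were lower. Of the 4 excitatory markers 1, Camk2a itself, was lower, by -0.18 and -0.31. Over all mice, the summed choroid plexus and ependyma markers ran from 40.3 to 13664 CPM (median 102) in pS6 membrane libraries. In Camk2a membrane libraries they ran from 30.9 to 1714 CPM (median 49.9), and in Input membrane libraries from 29.1 to 3877 (median 46.4). The part of all these markers in the motor gene values was not tested.

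Exon length was set beside the training differences, since heavy chains are long. Over members with a mean log2 CPM of at least 3, Spearman's rho between length and log2 difference was -0.43 in pS6 membrane (n = 33), -0.58 in Input membrane (n = 34) and -0.15 in Camk2a membrane libraries (n = 32). Over all genes it was -0.27, -0.23 and 0.01. In pS6 membrane libraries the 6 members of at least 12000 bases had a median of -0.32 and the 8 members under 4000 bases -0.05, against -0.13 and 0.06 for all genes of those lengths. The part of length in the Dync1h1 value was not tested.

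Whether the training difference itself differed between fractions was tested after the data had been seen. It did for 1 of 48 members in Camk2a (1.38% of all genes), Dync1h1 at -0.77 ± 0.12 (adjusted p = 0.000332). In pS6 it did for 5 of 53 (3.89%): Dync1h1 (-1.29, adjusted p = 0.00538), Dctn1 (-0.34, adjusted p = 0.00332), Kif1a (-0.34, adjusted p = 0.0338), Kif18b (-3.16, adjusted p = 0.0349, below 1 CPM) and, upward, Kif5a (0.31, adjusted p = 0.0123). In Input 0 of 48 passed by edgeR (0.151%, 6 at an unadjusted p under 0.05, 1 by DESeq2). With numbers 23 to 30 alone 0 passed in any. With the title number as a replicate block the counts were 3, 9 and 0, and Kif18b lost its call (-2.63). Kif18b was also lost with DESeq2 and with no filter, and Kif1a with RLE scaling (-0.28) and with no filter (-0.24). Of the genes called over the whole table, 51.6% were higher in Camk2a and 45.4% in pS6 with TMM scaling, and 84.7% and 77.2% with RLE scaling.

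Small shares of the members and of all genes were called with sleep loss. SD minus Sleep was tested over 14 SD and 16 Sleep mice. In pS6 cytosolic libraries 1 member was higher and 1 lower of 49 (7.88% of all genes called, 4.6% higher and 3.28% lower). Input cytosolic libraries had 1 and 1 of 47 (3.17%, 2.04% higher and 1.13% lower). Camk2a cytosolic libraries had 0 and 1 of 45 (6.28%, 4.13% higher and 2.15% lower). In the membrane fraction 0 members passed by edgeR or DESeq2: of 46 in Camk2a (2.97% of all genes, 5 at an unadjusted p under 0.05), of 51 in pS6 (1.73%, 5) and of 47 in Input (1.37%, 0). For 0 members were SD and Sleep without overlap in any library type, beside 0.027% and 0.00668% of all genes in Camk2a cytosolic and membrane, 0.109% and 0.012% in pS6 cytosolic and membrane, and 0.0125% and 0% in Input cytosolic and membrane libraries.

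Klc4, a kinesin light chain, was higher in pS6 cytosolic libraries. Its lowest, median and highest values were 14.4, 18.1 and 21.3 CPM in SD and 11.4, 14.7 and 17.9 in Sleep mice. Of the 14 SD mice 11 lay above the Sleep median, and the ranges overlapped. The difference was 0.29 ± 0.07 (adjusted p = 0.00818), and within numbers 1 to 11, 12 to 22 and 23 to 30 it was 0.48 ± 0.12, 0.23 ± 0.12 and 0.10 ± 0.14. In the other library types Klc4 differed by 0.14 (Camk2a cytosolic), 0.17 (Camk2a membrane), 0.06 (pS6 membrane), 0.14 (Input cytosolic) and 0.06 (Input membrane), none past the threshold. The 6 types come from the same mice.

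Kif22 was lower in pS6 cytosolic libraries, with 2.72, 3.11 and 4.2 CPM in SD and 3.03, 3.91 and 6.43 in Sleep mice. The value of 6.43 came from NoCFC Sleep number 5, while the others of that group lay at 3.58 to 4.82. The test was not repeated without that library. The difference was -0.34 ± 0.10 (adjusted p = 0.0269), 12 of 14 SD mice did not exceed the Sleep median, and the values within runs were -0.53, -0.16 and -0.32. In the same libraries all 5 inhibitory neuron markers were higher with SD (Sst by 0.54, Gad2 by 0.38) and 2 of 4 excitatory markers lower. Their part in the Klc4 and Kif22 values was not tested.

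Kif3b was higher in Input cytosolic libraries, with 43.4, 54.9 and 60.9 CPM in SD and 42.0, 47.4 and 54.3 in Sleep mice (0.17 ± 0.05, adjusted p = 0.0280, 12 of 14 SD mice above the Sleep median). Dctn6 was lower there, with 43.2, 48.4 and 51.6 CPM in SD and 47.6, 52.5 and 65.4 in Sleep mice (-0.13 ± 0.04, adjusted p = 0.0426). None of the 14 SD mice exceeded the Sleep median of Dctn6, and the values within runs were -0.16, -0.08 and -0.17. Members not called had similar mouse counts. In Input cytosolic libraries 13 of 14 SD mice exceeded the Sleep median for Dctn4 and 1 of 14 for Kif26a. For Kif3a in pS6 membrane libraries it was 0 of 14. The share of all genes with such counts was not taken. Exons of Dctn6 overlap another gene over 11.8% of their length. In Input cytosolic libraries 0 cell type markers passed by edgeR.

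Dync2li1, a light intermediate chain of the ciliary dynein, was lower in Camk2a cytosolic libraries, with 23.9, 25.9 and 29.3 CPM in SD and 25.0, 28.3 and 32.6 in Sleep mice (-0.13 ± 0.04, adjusted p = 0.0492). With the run term the adjusted p was 0.0560. Without the filter on low counts the adjusted p of Kif22, Kif3b, Dctn6 and Dync2li1 was 0.0645, 0.0573, 0.141 and 0.159, and only Klc4 remained called.

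In Camk2a cytosolic libraries, Dync1h1 and some of the abundant motor genes differed little with sleep loss. SD minus Sleep there was -0.06 ± 0.05 for Kif5a, -0.00 ± 0.04 for Kif1a, -0.01 ± 0.04 for Kif5c, -0.02 ± 0.03 for Klc1 and -0.04 ± 0.05 for Dync1h1. The widest error among these genes was that of Dync1h1 in pS6 cytosolic libraries, 0.06 ± 0.23, which leaves the size of a change there open. Values of these genes in the other library types are not all listed here. Single genes of the pathway lists that passed were Tubb6 (0.40) in Camk2a cytosolic, Bicdl1 (0.23) in Camk2a membrane, Dclk1 (0.23) in pS6 cytosolic and Hap1 (-0.36) in pS6 membrane libraries.

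**Figure D5:**
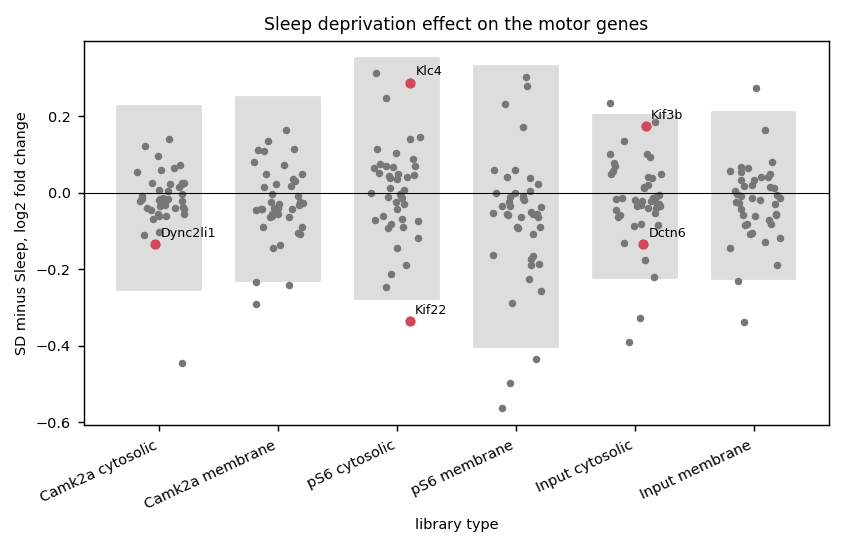
SD minus Sleep log2 fold change of the members with an average log2 CPM of at least 0 in each of the 6 library types. Grey boxes span the 5th to 95th percentile of all genes tested, red points are the members called, and most members lie inside the boxes.

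The effect of sleep loss was not found to depend on training or fraction. For training by sleep, 0 members and 0 genes passed by edgeR in any of the 6 library types, with 1, 4, 2, 3, 1 and 1 members at an unadjusted p under 0.05 (Camk2a cytosolic and membrane, pS6 cytosolic and membrane, Input cytosolic and membrane) and 0 by DESeq2. For the difference of the sleep effect between fractions, 0 members and 0 genes passed in Camk2a, pS6 and Input, with 0, 3 and 0 members at an unadjusted p under 0.05 and 0 by DESeq2.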

How the data were processed

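Per the labels' protocols, SMART-seq v4 was the library chemistry. The authors deposited whole-number counts per gene for 180 libraries. Per the submitters' processing notes, STAR 2.6.1a, featureCounts and MultiQC 1.6a0 were used with GRCm38.p6. The strand setting and the annotation release are not given in the sources used here.

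From these counts, differences were tested with edgeR 4.0.16 (R 4.3.3, limma 3.58.1): filterByExpr, TMM scaling, the robust quasi-likelihood test and Benjamini-Hochberg adjustment over all genes tested, called at an adjusted p under 0.05 and, for fractions and captures, at least 2-fold. DESeq2 1.42.0, RLE scaling, no filter (at least 1 count), no fold minimum, a number-run term, numbers 23 to 30 alone and a replicate block were the alternatives. The tests were checked on simulated data. The comparisons of the training difference between fractions were added after seeing the data.

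Groups came from the labels. The title number was taken as the mouse: deviations of same-numbered libraries had a median correlation of 0.107, against -0.0168 for other numbers of the same group, and 243 of 450 pairs exceeded 0.1. Library replicates are then separate mice. No pair of libraries within a group was alike within sampling noise (lowest chi-square per degree of freedom 3.01 over 588 pairs).

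The members and the lists of partners, markers and motifs were chosen with earlier results of these data known. Any member could be named. A set of 28 was always described, members that passed were named in order of p, up to 12 each way, and list genes up to 3 each way. Promoters came from RefSeq (GRCm38.p6), matched by symbol for 43 of the 56 members.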

Additional observations from a re-analysis of the deposited data

Results flagged for a closer look

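In 140 groups of 7 or 8 libraries, tested for the motor gene share of counts, for Dync1h1, Kif1a, Dctn1 and Kif5a in all library types and for the 5 members called with sleep loss where they were called, 13 values from 12 libraries lay far from the others of their group. Chance flags about 1 in 20 groups. The motor gene share was 0.632% in NoCFC SD Input cytosolic number 27 (others 0.663 to 0.683%), 0.72% in CFC SD Input membrane number 22 (others 0.779 to 0.812%) and 0.389% in CFC SD pS6 membrane number 19 (others 0.457 to 0.502%). Dync1h1 was at 65.1 CPM in CFC SD Camk2a cytosolic number 19 (others 76.9 to 84.7) and 104 in CFC Sleep Camk2a cytosolic number 15 (others 74.4 to 87.1). Kif1a was at 277 CPM in NoCFC Sleep Input cytosolic number 6 (others 341 to 397), 310 in NoCFC Sleep pS6 cytosolic number 2 (others 173 to 227) and 609 in CFC Sleep pS6 membrane number 14 (others 683 to 728). Kif5a was at 304 CPM in CFC SD Camk2a cytosolic number 29 (others 425 to 467), 353 in CFC Sleep Camk2a cytosolic number 17 (others 421 to 480), 643 in NoCFC SD Input cytosolic number 27 (others 802 to 922) and 624 in NoCFC Sleep pS6 membrane number 1 (others 769 to 890). Kif22 was at 6.43 CPM in NoCFC Sleep pS6 cytosolic number 5 (others 3.58 to 4.82).

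The training difference itself differed between the membrane and cytosolic fractions for 6 gene and capture pairs (edgeR interaction test): Dync1h1 by -0.77 in Camk2a, and in pS6 Dync1h1 by -1.29, Kif1a by -0.34, Dctn1 by -0.34, Kif18b by -3.16 and Kif5a by 0.31.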

How the results depend on the processing

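Of the counts of members called under the alternatives, 129 stayed within 1.5 times the reported count and 33 moved. A count of 0 in both was taken as unchanged, so comparisons without called members are among the 129. With the run term, and with numbers 23 to 30 alone, the CFC counts of Camk2a membrane, pS6 membrane, Input cytosolic and Input membrane libraries were 0, and these members changed sign: Kif1b in Camk2a membrane (0.0287 and 0.0301), Kif1b (0.0313 under both), Dync1i2 (0.19 and 0.19), Klc2 (0.0112 and 0.0111) and Dync1i1 (0.0068 and 0.0071) in pS6 membrane and Kif5a in Input cytosolic libraries (0.0220 and 0.0202). The cause of these changes was not tested. The SD count of Camk2a cytosolic libraries was 0 with the run term and with no filter, which tests more genes; with no filter those of pS6 and Input cytosolic libraries were 1 and 0, and the number run gave 3 in pS6 cytosolic libraries.

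With no fold minimum the fraction counts were 43 (Camk2a), 44 (pS6) and 37 (Input), and the capture counts 44, 41 and 40 in the cytosolic and 41, 33 and 36 in the membrane fraction (Camk2a minus Input, pS6 minus Input, pS6 minus Camk2a). The Input fraction count was 6 with DESeq2, RLE and no filter. The count for the training difference between fractions was, in Camk2a, 2 with DESeq2, 2 with RLE, 0 with numbers 23 to 30 alone and 3 with the replicate block; in pS6, 3 with no filter, 0 with numbers 23 to 30 alone and 9 with the block; in Input, 1 with DESeq2. With the block the fraction counts were 12, 11 and 10, and the block moved no other count by over 1.5 times. Of all genes called in Input for the training difference between fractions, 4% were higher with TMM and 16.7% with RLE. Members below 1 CPM rest on few counts, which limits their precision.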
